A study of Mus musculus with 4 samples.

Results

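Cluster 6 is 1 of 15 numbered groups of single cells from a directed cardiac differentiation of mouse embryonic stem cells, and its label names the signalling genes Wnt1 and Shh. Its members here are the genes that the authors' deposited marker table lists for it, chosen by cluster number alone. They are 56 (4.68%) of the 1197 genes in that table, with 30 listed higher and 26 listed lower than in all other cells. The study profiled 4 groups of cells by droplet sequencing, with 1 library in each. They were Brm knockout mesoderm and wild-type mesoderm, and Brm knockout cardiac progenitors and wild-type cardiac progenitors. Every group carried the BRG1 3XFLAG allele, a tagged form of the ATPase that is the alternative to Brm in the BAF chromatin remodelling complex, and the knockout groups were also BRM KO. The table's columns name no library, so the share of knockout or wild-type cells in cluster 6 was not analysed here and no contrast of genotype or stage was made. With 1 library in each group no value has a replicate, and how many clones stand behind each genotype is not stated in the labels.

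Wnt1 and Shh are secreted ligands that pattern the embryonic neural tube. Wnt1 is made in the dorsal midline and at the junction of midbrain and hindbrain, and binds Frizzled receptors to stabilise beta-catenin. Shh is made by the notochord and by the floor plate, the ventral midline of the neural tube, and there depends on the transcription factor Foxa2. In the ventral midbrain both ligands are made close together, where dopaminergic neurons arise. Sox2 is a transcription factor of neural stem and progenitor cells that is also used in pluripotent cells.

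All 6 of the genes used to label the cluster, Pcp4l1, Tpbg, Wnt1, Shh, Foxa2 and Sox2, were listed higher in it, and that is a description, because they were picked from this list. The word progenitors was backed by fewer genes. Of 7 neural progenitor genes in the table, Sox2 was listed higher, Crabp1 was listed lower and 5 were not listed for cluster 6. None of the 8 S phase genes or 11 G2 and M phase genes in the table was listed for it in either direction. The shares in other clusters alone leave room for detection in up to 100% of its cells for all 8 and all 11. An unlisted gene missed a limit of the table, which is not absence, so this count does not bear on the word. Of all 1197 genes, 2.51% were listed higher in cluster 6 and 2.17% lower, which is the background for each count of a gene list below. The clusters were formed on the same expression values, so listed genes define cluster 6 and no test was made. The cells are therefore called cluster 6 here.

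Cluster 6 held 7.64% of the cells, the seventh largest of the 15 clusters, as worked out from the authors' deposited shares of detecting cells. The number of cells and their depth are unknown. Its 56 genes were among the shorter lists, which ran between 29 and 580 genes over the clusters. The table lists a gene where the natural log fold change is at least 0.50 in size and at least 25.1% of cells detect it inside or outside the cluster. Tubb2b, with 0.50 on the natural log scale, and Efcab1, detected in 25.4% of cells inside, were the higher members closest to these limits according to the authors' deposited table. Genes just beyond the limits were not analysed here. Folds below are exponentials of the deposited log fold changes. Whether a constant was added before the logs is unknown. Such a constant would understate the folds of weakly detected genes, so a fold may be smaller than the ratio of mean levels.

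Wnt1 was the most restricted member. It was detected in 31% of the cells of cluster 6 against 0.9% of all other cells, and was 3.06-fold higher, according to the authors' deposited table. Taken with the size of the cluster, 74.0% of all Wnt1-detecting cells lay in cluster 6, between 72.9% and 75.1% when the rounding of the deposited shares is allowed for. No other cluster listed Wnt1. Shh was found in 30.3% of its cells against 4% of the others and was 2.21-fold higher according to the authors' deposited table. Cluster 6 held 38.5% of the Shh-detecting cells, so most of them lay elsewhere, although no other cluster listed the gene. Whether the same cells carry both ligands was not analysed here, because the table gives no cell by cell values. The shares bound it: between 0% and 30.3% of the cells detected both, and at least 38.7% detected neither.

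Slit2 encodes a secreted repellent of growing axons that is also made at the ventral midline. It was found in 35.5% of its cells against 6.3% of the others and was 2.35-fold higher according to the authors' deposited table, and it too was listed for cluster 6 alone. Of all cells with Slit2, 31.8% lay in cluster 6.

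Among the 15 genes listed for cluster 6 and for no other cluster, which are 1.25% of the genes in the table, the leading ones by fold were Pcp4l1, Tpbg and Wnt1. Pcp4l1 encodes a small neuronal protein, and was found in 32.5% of its cells against 2.8% of the others according to the authors' deposited table, so that cluster 6 held 49.0% of the cells detecting it. Tpbg, a leucine-rich repeat glycoprotein of the cell surface that acts in Wnt signalling, was the broadest of the leading genes. It was found in 58.1% of its cells against 13.3% of the others according to the authors' deposited table, and 26.5% of the detecting cells lay in cluster 6. Because these genes lead the cluster together, the 250 bases upstream of their most distal RefSeq start sites are shown, 5′ to 3′ on the strand of each gene and in build GRCm38.p6. They come from chr15:98789607-98789856 on the plus strand for Wnt1, chr1:171196269-171196518 on the minus strand for Pcp4l1 and chr9:85842130-85842379 on the plus strand for Tpbg. Capitals mark matches to the motifs named after them.
Wnt1: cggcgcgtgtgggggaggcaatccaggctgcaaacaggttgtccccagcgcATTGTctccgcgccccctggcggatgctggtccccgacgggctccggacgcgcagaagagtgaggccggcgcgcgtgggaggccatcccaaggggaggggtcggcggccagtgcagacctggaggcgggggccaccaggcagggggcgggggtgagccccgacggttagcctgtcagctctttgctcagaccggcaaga
Pcp4l1: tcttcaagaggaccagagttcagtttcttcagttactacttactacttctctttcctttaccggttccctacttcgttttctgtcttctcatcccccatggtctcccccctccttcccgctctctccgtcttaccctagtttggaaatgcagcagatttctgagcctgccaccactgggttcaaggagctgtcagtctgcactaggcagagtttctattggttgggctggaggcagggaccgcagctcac
Tpbg: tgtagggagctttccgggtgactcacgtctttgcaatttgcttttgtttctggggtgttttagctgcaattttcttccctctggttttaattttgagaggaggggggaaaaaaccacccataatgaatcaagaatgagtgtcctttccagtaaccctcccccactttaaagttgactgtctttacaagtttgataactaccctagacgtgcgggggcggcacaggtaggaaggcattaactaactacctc

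The search covered 4 motifs on both strands, for factor families with a member or a pathway in this cluster. They were ACAAT for SOX factors, TGTTTAC for FOX factors, GACCACCCA for the GLI factors of Hedgehog signalling and CTTTGA for the TCF and LEF factors of Wnt signalling. Of the 15 genes listed for cluster 6 alone, 11 had a RefSeq window. ACAAT was in 4 of the 11 (Cdv3, Cmtm8, Dmrta2 and Wnt1), against 28.2% of 27025 windows of all genes, and in Wnt1 it covers bases -199 to -195 from the start site. The other motifs were in 0 of the 11, against 3.06% of all windows for TGTTTAC, 0.207% for GACCACCCA and 14.1% for CTTTGA. A match is a match of letters and no evidence of binding.

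Transcription factors made up a second group of members. Dmrta2, a doublesex-related factor of forebrain and ventral midbrain progenitors, was found in 37.5% of its cells against 3% of the others and was 2.87-fold higher according to the authors' deposited table. It was listed for cluster 6 alone, and cluster 6 had 50.8% of all cells with Dmrta2. Sox2 was found in 54.4% of its cells against 16% of the others and was 2.45-fold higher according to the authors' deposited table. Clusters 1 and 4 listed Sox2 as well, with 44.9% and 44.5% of their cells detecting it according to the authors' deposited table, and in the clusters that did not list it 7.07% of cells did. Its level over the mean of all cells was 2.21-fold in cluster 6, 1.80-fold in cluster 1 and 1.75-fold in cluster 4, a spread of less than 0.5 on the natural log scale. Levels of this kind take the deposited folds as ratios of means, so a constant added before the logs would draw them closer together. Foxa2 was shared with cluster 3: 27.8% of the cells of cluster 6 and 44.9% of those of cluster 3 detected it according to the authors' deposited table, against 3.90% of the cells of all remaining clusters. Its level over the mean of all cells was 1.58-fold in cluster 6 and 2.39-fold in cluster 3, also less than 0.5 apart on the natural log scale. Cluster 6 held 21.3% of the Foxa2-detecting cells and cluster 3 held 46.8%.

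Zfp503, a zinc finger repressor, was detected in 32.6% of the cells of cluster 6 and 30.9% of those of cluster 4 according to the authors' deposited table, and in 5.53% of the cells of the clusters that did not list it. Tox3, a high mobility group box protein of neurons, was listed for cluster 6 and for cluster 12, which lists Tubb3 and other neuronal genes, with 29.1% and 25.5% of cells detecting it according to the authors' deposited table. Id3, a target of BMP signalling that blocks basic helix-loop-helix factors, was found in 88.5% of its cells against 55.2% of the others and was 2.12-fold higher according to the authors' deposited table. Id1 and Id2 were not listed for cluster 6. Of 12 BMP, TGF-beta and Notch genes in the table, Id3 was the 1 listed higher, and none was listed lower.

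**Figure D1:**
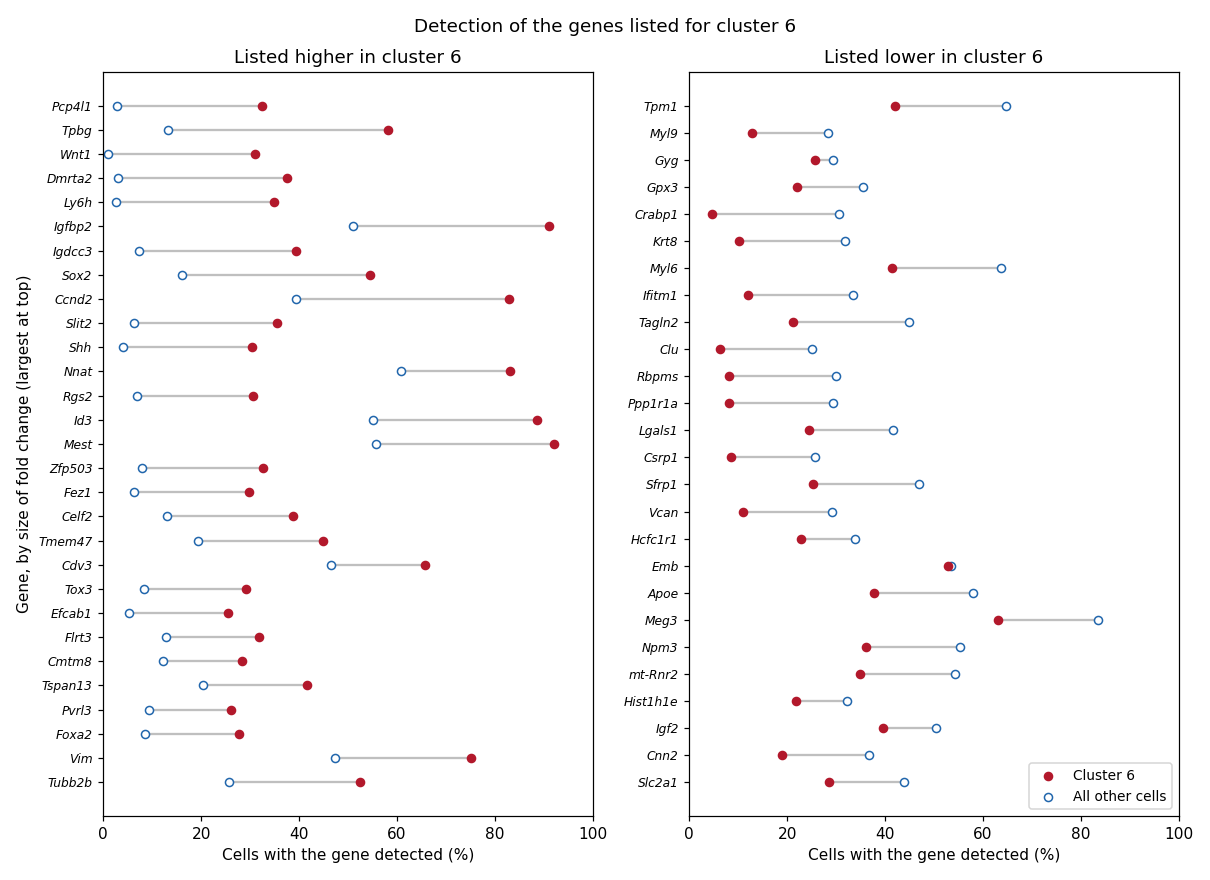
Share of cells with each gene detected, in percent, inside cluster 6 (filled) and in all other cells (open), for 29 of the 30 genes listed higher (left) and the 26 listed lower (right), ordered by the size of the fold change. Pcp4l1, Wnt1, Dmrta2 and Ly6h were detected in 31% to 37.5% of cells inside and in at most 3% outside, while Emb had nearly the same share in both.

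The plot of detection by gene shows 2 kinds of higher members. The 15 listed for cluster 6 alone were detected in 25.4% to 65.8% of its cells, with a median of 32.5%, and in 0.9% to 46.6% of other cells, with a median of 6.8%, according to the authors' deposited table. The other 15 were detected in 27.8% to 92.1% of its cells, with a median of 54.4%, according to the authors' deposited table. Over all 30 the median fold was 2.01 according to the authors' deposited table, against 2.10 over every higher entry of the 15 clusters. Of the 15 listed for cluster 6 alone, 2 were detected in a majority of its cells, Tpbg and Cdv3.

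Several of the genes listed for cluster 6 alone encode membrane and adhesion proteins. Ly6h, a lipid-anchored protein of the brain, was found in 34.9% of its cells against 2.6% of the others and was 2.86-fold higher according to the authors' deposited table, and cluster 6 held 52.6% of the detecting cells. Flrt3, a leucine-rich transmembrane protein of cell adhesion and FGF signalling, was 1.72-fold higher, and Pvrl3, the adhesion protein nectin-3, was 1.67-fold higher, according to the authors' deposited table. Tmem47, a protein of cell junctions, was found in 44.8% of its cells against 19.3% of the others according to the authors' deposited table. The tetraspanin gene Tspan13 and the MARVEL domain gene Cmtm8 were 1.67-fold and 1.69-fold higher according to the authors' deposited table. Igdcc3, an immunoglobulin superfamily receptor related to DCC, was shared with cluster 12: 39.4% of the cells of cluster 6 and 45.3% of those of cluster 12 detected it according to the authors' deposited table, against 6.53% of the cells of the remaining clusters.

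Signalling inside the cell was represented by Rgs2, which damps G protein signalling, at 2.15-fold, and by the EF-hand calcium-binding protein gene Efcab1 at 1.77-fold, both listed for cluster 6 alone according to the authors' deposited table. Cdv3 was detected in 65.8% against 46.6% and was 1.83-fold higher according to the authors' deposited table. Fez1, an adaptor of kinesin transport in axons, was found in 29.7% of the cells of cluster 6 and 26.3% of those of cluster 12 according to the authors' deposited table. The RNA-binding protein gene Celf2 was found in 38.8% of the cells of cluster 6 and 34% of those of cluster 1 according to the authors' deposited table.

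**Figure D2:**
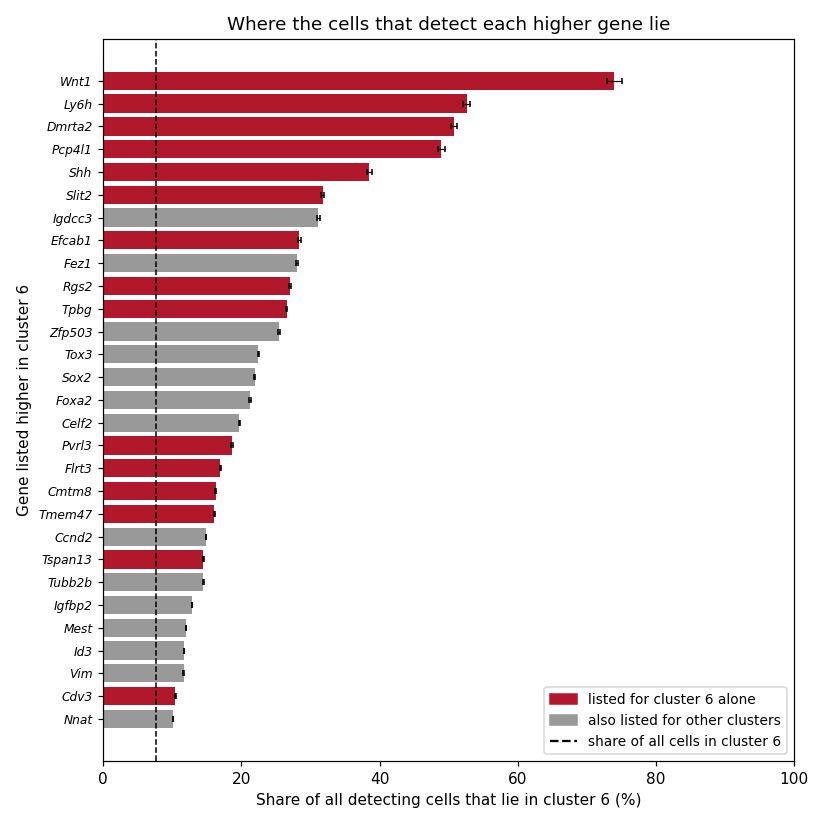
Share of all cells detecting a gene that lie in cluster 6, in percent, for 29 of the 30 genes listed higher. Bars are ordered by that share, error bars span the rounding of the deposited shares, red bars are listed for cluster 6 alone, and the dashed line is the 7.64% of all cells that cluster 6 holds. Wnt1, Ly6h and Dmrta2 lie at 50.8% or above, and Nnat is lowest of those drawn at 10.1%.

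Wnt1, Ly6h and Dmrta2 were the 3 members with a majority of their detecting cells in cluster 6, as the plot of these shares shows. Over the 15 genes listed for it alone the share ran between 10.5% for Cdv3 and 74.0% for Wnt1, with a median of 27.1%. Over 14 of the other 15 higher genes it ran between 10.1% and 31.2%, with a median of 17.3%.

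Of 12 Wnt pathway genes in the table, Tpbg, Wnt1 and Ccnd2 were listed higher, Sfrp1 was listed lower, and 8 were not listed for cluster 6. Those 8 included Wls, which carries Wnt proteins to the cell surface, and the Wnt targets Sp5 and Nkd1. The list mixes genes of different roles, ligands, antagonists and targets among them, so these counts give no direction of Wnt signalling. Sfrp1 was found in 25.3% of its cells against 46.9% of the others and was 2.20-fold lower according to the authors' deposited table. Of 3 Hedgehog genes in the table, Shh and Foxa2 were listed higher and Gpc3 was not listed. Both counts of higher genes, 3 of 12 and 2 of 3, stand above the 2.51% of all genes, but Tpbg, Wnt1, Shh and Foxa2 are genes that label the cluster. The receptor genes Ptch1 and Hhip and the effector gene Gli1, which are common targets of Hedgehog signalling, were in 0 of the 15 lists of the table. None of the 3 FGF pathway genes was listed for cluster 6. In the retinoic acid list, the binding protein gene Crabp1 was the 1 of 5 listed lower, found in 4.7% of its cells against 30.6% of the others, according to the authors' deposited table. Of the 11 clusters that list Crabp1, cluster 6 had the lowest level, next to cluster 4, where 4.4% of cells detected it according to the authors' deposited table.

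Of 6 floor plate and ventral midbrain genes in the table, Shh, Foxa2, Slit2 and Cmtm8 were listed higher, and Otx2 and Calca were not listed. Of 5 roof plate, isthmus and dorsal midbrain genes, Wnt1 was listed higher, and Fgf8, Otx2, Zic1 and Sp5 were not listed. None of 9 forebrain and eye field genes was listed. Not being listed is not absence. From the shares alone, the upper bound on cluster 6 cells detecting these 9 ran between 23.4% and 100%, with a median of 41.3%. For Otx2 and Fgf8 it was 100%, but this bound leaves out the fold limit for listing. Cluster 4 listed Otx2 higher at 57% of its cells, and cluster 1 listed Fgf8 higher at 36.9%. None of the 18 hindbrain and spinal cord genes, Hox genes among them, was in the table at all. Shh, Foxa2 and Wnt1, which make up most of these counts, are also among the genes that label the cluster, so the counts do not support a name. The lists were also chosen with earlier results of these data known, so Slit2 and Cmtm8 add no independent support.

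Genes that mark other cell types were limited in cluster 6 to different degrees. Where a gene was not listed for cluster 6, the cells left outside the clusters that list it limit its detection there. This bound uses the shares alone and leaves out the fold limit for listing, so the true limit may be lower. Over the 17 cardiomyocyte genes not listed for it, this upper bound ran between 5.31% and 96.0% of the cells of cluster 6, with a median of 19.6%, and was under 25% for 11. It was 13.3% for the sarcomere gene Actn2 and 12.8% for the cardiac factor Nkx2-5, but 89.0% for the atrial light chain gene Myl7 and 96.0% for the cardiac actin gene Actc1. Over 9 neuron genes it ran between 9.68% for Elavl3, an RNA-binding protein gene, and 79.8% for Stmn2, with a median of 29.0%. Over 6 epithelial genes it ran between 6.77% for the claudin gene Cldn7 and 100% for the keratin gene Krt18, with a median of 24.3%. Over 8 pluripotency and epiblast genes it ran between 5.88% for Dppa5a and 100% for the DNA methyltransferase gene Dnmt3b, with a median of 18.8%. Over 8 endoderm genes it ran between 11.1% and 63.7%, with a median of 26.3%. A bound near 100% limits nothing by itself, so the shares alone leave room for detection of some of these genes in cluster 6. Of 19 cardiomyocyte genes in the table, Tpm1 and Myl9 were listed lower and none higher. Of 9 neuron genes none was listed for cluster 6. One of 10 endoderm genes, Foxa2, was listed higher and 1, Apoe, lower. Of 9 node and notochord genes Shh and Foxa2 were listed higher and Krt8 lower, and among 7 epithelial genes Krt8 was the 1 listed, found in 10.2% of its cells against 31.8% of the others according to the authors' deposited table. The streak and notochord factor T was listed for cluster 3 alone and was detected in 3% of all cells outside that cluster according to the authors' deposited table.

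Many members were listed for other clusters as well. Each entry of the table sets 1 cluster against all other cells, so the entries share most of their cells, and the same gene listed for 2 clusters is no independent support. Cluster 4 listed 31 of the 56 members, which are 55.4% of the genes of cluster 6 and 59.6% of the 52 genes of cluster 4, where 4.34% of all genes in the table were listed. Cluster 12 listed 30 of them, which are 53.6% of the genes of cluster 6 and 21.6% of those of cluster 12, which lists 11.6% of the table's genes. Cluster 1 listed 29, which are 51.8% of the genes of cluster 6 and 37.2% of those of cluster 1, which lists 6.52% of the table's genes. Most of these shared genes were lower in both clusters, 23 of 31 for cluster 4, 21 of 30 for cluster 12 and 20 of 29 for cluster 1. Cluster 2 listed 26 members, or 46.4% of the genes of cluster 6 and 4.48% of its own, and it lists 48.5% of the table's genes. Cluster 5 listed 23, or 41.1% of the genes of cluster 6 and 23% of its own, and it lists 8.35% of the table's genes. Cluster 11 listed 15, or 26.8% of the genes of cluster 6 and 51.7% of its own, and it lists 2.42% of the table's genes.

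For genes that 2 clusters list, their levels can be set against each other through the mean of all cells. This takes the deposited folds as ratios of means. A constant added before the logs would shrink the differences for weakly detected genes. Of the 31 genes shared with cluster 4, 30 differed by less than 0.5 on the natural log scale. The exception was Npm3, a nucleolar chaperone gene, detected in 36% of the cells of cluster 6 and 71.2% of those of cluster 4 according to the authors' deposited table, with a level 2.77-fold higher in cluster 4. Of the 29 shared with cluster 1, 28 lay within 0.5. The exception was the imprinted non-coding RNA gene Meg3, detected in 63% of the cells of cluster 6 and 96.7% of those of cluster 1 according to the authors' deposited table, with a level 3.28-fold higher in cluster 1. Of the 30 shared with cluster 12, 26 lay within 0.5. The neural tubulin gene Tubb2b and Nnat were 5.07-fold and 2.52-fold higher in cluster 12, and Igf2 and Emb were 1.98-fold and 1.95-fold higher in cluster 6. Genes that only 1 of 2 clusters lists, such as Wnt1 and Shh, were not compared in this way, so these counts leave out what separates them.

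**Figure D3:**
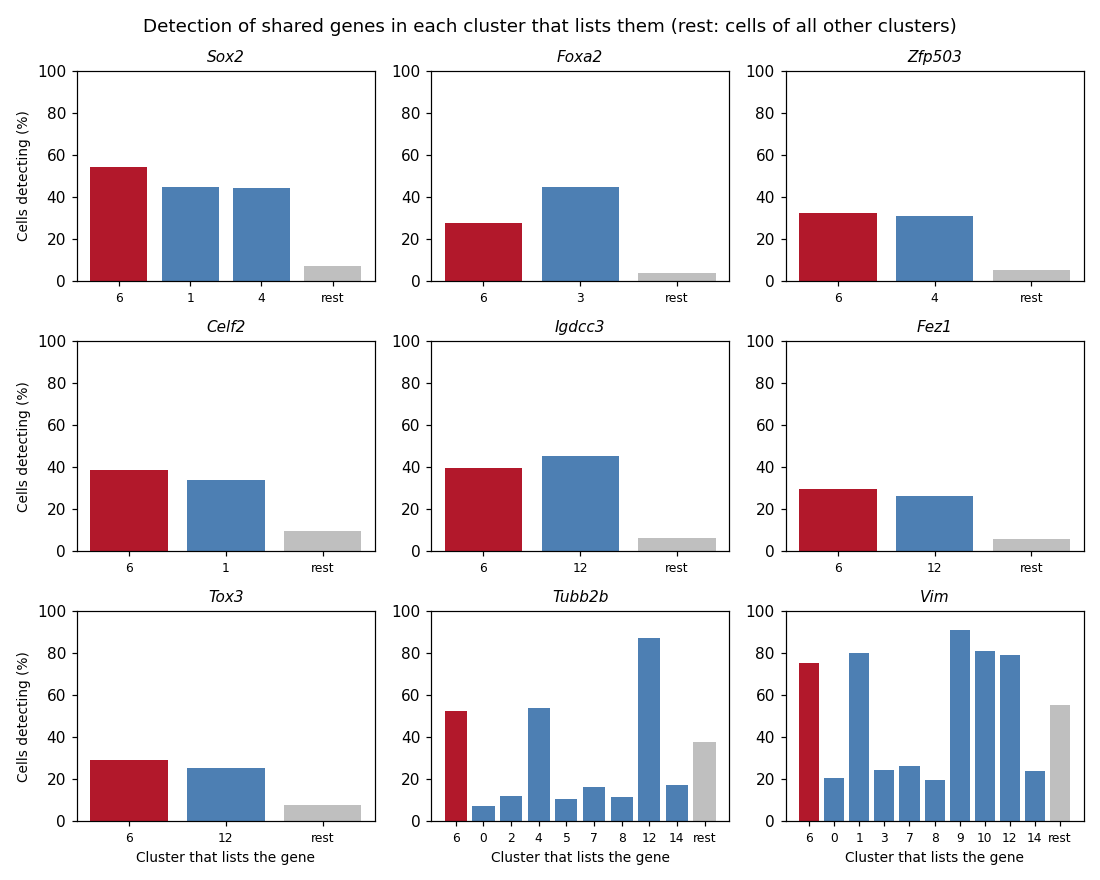
Share of cells detecting 9 genes, in percent, in cluster 6 (red), in the other clusters that list the gene (blue) and in the cells of all clusters that do not list it (grey, rest). Sox2 stood at 54.4% in cluster 6 against 7.07% in the rest, and Foxa2 at 27.8% in cluster 6, 44.9% in cluster 3 and 3.90% in the rest.

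Some members were listed for most clusters over a wide range of levels. Igfbp2, which binds insulin-like growth factors, was found in 91.1% of its cells against 51% of the others and was 2.69-fold higher according to the authors' deposited table. Among the 10 clusters that list Igfbp2, the level was highest in cluster 6, at 2.38-fold the mean of all cells, followed by cluster 1 at 2.08-fold, and lowest in cluster 2 at 0.20-fold. Clusters 6 and 1 differed by less than 0.5 on the natural log scale. Ccnd2, a cyclin of G1 phase, was found in 82.8% of its cells against 39.3% of the others according to the authors' deposited table, and its level ranked 3 of 12 clusters, after clusters 12 and 4. Vim, the mesenchymal and progenitor intermediate filament gene, was detected in 75.2% against 47.3% according to the authors' deposited table, and its level ranked 5 of 10, under cluster 9 with 90.9% of cells. Tubb2b was detected in 52.4% of the cells of cluster 6, 53.9% of those of cluster 4 and 87.3% of those of cluster 12 according to the authors' deposited table.

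Imprinted genes were listed in both directions, with 2 of the 12 in the table listed higher and 2 lower. Mest was found in 92.1% of its cells against 55.8% of the others, and the neuronatin gene Nnat in 83% against 60.8%, according to the authors' deposited table. Igf2, the embryonic growth factor gene, was detected in 39.6% against 50.4% and was 1.69-fold lower, according to the authors' deposited table. Meg3 was detected in 63% against 83.4% and was 1.81-fold lower according to the authors' deposited table.

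**Figure D4:**
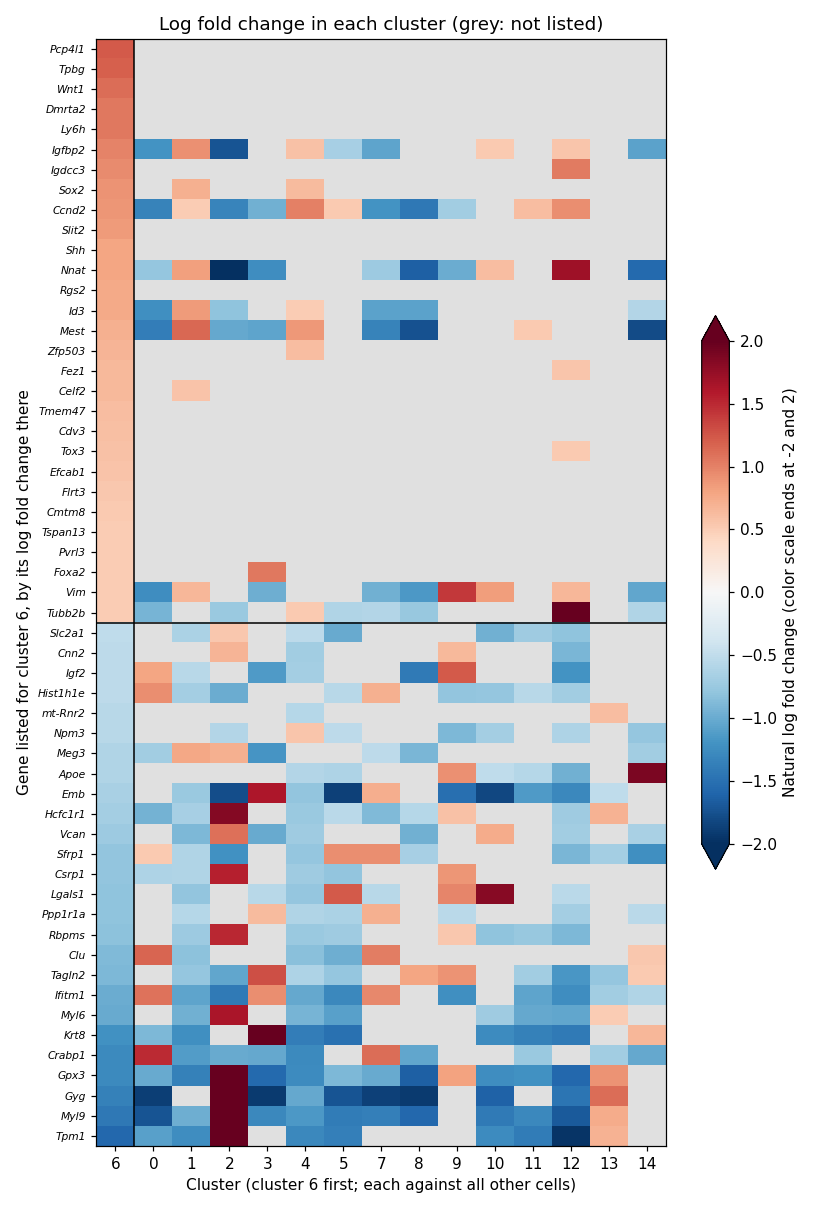
Natural log fold change of 55 of the 56 genes listed for cluster 6 (rows) in each of the 15 clusters (columns, cluster 6 first), each against all other cells. Red is higher, blue is lower and grey means that the cluster does not list the gene. The genes listed for cluster 6 alone are red in the first column only, and the lower genes are shared with 2 to 13 other clusters.

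None of the 26 lower genes was listed for cluster 6 alone. Each was listed for 2 to 13 other clusters, with a median of 8, and each was listed higher in at least 1 of them, as the map of fold changes shows. Tpm1 and Myl9 had the largest folds. Tpm1, a tropomyosin, was 4.79-fold lower and was found in 42.1% of its cells against 64.7% of the others, and Myl9, a smooth muscle myosin light chain, was 4.21-fold lower, according to the authors' deposited table. Gyg, the primer of glycogen synthesis, was 3.86-fold lower but was found in 25.7% of its cells against 29.4% of the others according to the authors' deposited table. Gpx3, a secreted peroxidase, was 3.58-fold lower, and Myl6, a non-muscle myosin light chain, was 2.74-fold lower, according to the authors' deposited table.

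Tpm1, Myl9, Gyg and Gpx3, the 4 lower genes with the largest folds, were all listed higher in cluster 2, which lists the cardiac contractile genes and holds 12.6% of the cells. Of the 26 lower genes, 12 were listed higher in cluster 2, as were 22.7% of all genes in the table. With cluster 2 taken out of the cells that cluster 6 is set against, the fold could be worked out for the 19 lower and 7 higher genes that cluster 2 also lists. Of those 19, 9 were still lower by a natural log of 0.5 or more. Tpm1 was then 2.09-fold lower, while Gyg at 1.12-fold, Myl9 at 1.31-fold and Gpx3 at 1.40-fold lower no longer reached that limit. Of the 7 higher genes, 6 still reached it and Tubb2b did not. The other 7 lower and 23 higher genes have no entry for cluster 2 and were not worked out.

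Other lower genes are listed higher in clusters other than cluster 2. Crabp1 and Ifitm1, a membrane protein induced by interferon and present in early mesoderm, are listed higher in clusters 0 and 7, and Ifitm1 also in cluster 3. They were 3.58-fold and 2.71-fold lower in cluster 6 according to the authors' deposited table. Ifitm1 was found in 11.9% of its cells against 33.4% of the others, and Clu, a secreted chaperone, in 6.3% against 25.1%, according to the authors' deposited table. Krt8, a keratin of simple epithelia, was 3.33-fold lower and is listed higher in clusters 3 and 14, according to the authors' deposited table. Lgals1, a galectin of mesenchyme, was detected in 24.4% against 41.7%, and the actin-binding gene Tagln2 in 21.2% against 44.9%, according to the authors' deposited table. Ppp1r1a, an inhibitor of protein phosphatase 1, was 2.24-fold lower according to the authors' deposited table and is listed higher in clusters 3 and 7. Among the clusters that list them, the level in cluster 6 was lowest for 4 of the 26, Crabp1, Lgals1, Ppp1r1a and the muscle LIM gene Csrp1. For each of the 4, the next lowest cluster was within 0.5 on the natural log scale. Crabp1 stood at 0.295-fold the mean of all cells in cluster 6 and 0.297-fold in cluster 4. Csrp1 stood at 0.473-fold in cluster 6 and 0.477-fold in cluster 5.

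Of 49 genes of general cell function in the table, 2 were listed for cluster 6, near the 4.68% of all genes. The mitochondrial ribosomal RNA gene mt-Rnr2 was the 1 of 10 mitochondrially encoded genes listed, found in 34.9% of its cells against 54.3% of the others according to the authors' deposited table, and 0 of 11 ribosomal protein genes were listed. Cluster 4 had a like entry for mt-Rnr2, with 33% of its cells detecting it according to the authors' deposited table. Of 17 glycolysis and hypoxia genes in the table, the glucose transporter gene Slc2a1 was listed lower, at 28.5% of cells against 43.9% according to the authors' deposited table, and 16 were not listed. None of the 8 stress and immediate early genes in the table was listed for cluster 6. Of the 3 BAF complex genes in the table, Smarcb1, Smarcc1 and Actb, none was listed for it, and the knocked-out gene Smarca2 and the tagged gene Smarca4 are in 0 of the 15 lists, which does not check the genotype labels.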

How the data were processed

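Single cells were captured with 10x chemistry and processed with Cell Ranger and Seurat against mm9, per the submitters' processing notes; no version, cell filter, doublet handling, clustering setting or library list is given in the sources used here. What the authors deposited is 1 table with a row for each gene and numbered cluster. Per the file headers it gives a natural log fold change of cells inside the cluster over all others, the fraction of cells detecting the gene inside and outside (printed as percent), and p-values over cells. The p-values served 1 alternative only, since cells are not replicates. The headers name no base of the log. The natural base was taken from Gpx3 alone, whose 14 listing clusters hold 99.7% of cells: they then account for 99.6% of its expression, against 90.1% with base 2 and 125% with base 10. Folds are exponentials of the deposited values; any constant added before the logs is unknown and would understate folds of weak genes.

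Cluster sizes were solved by least squares, since the share of all cells detecting a gene must be the same from each of the clusters listing it (407 genes; sizes summed to 100.002%; SE 0.0208 percentage points for cluster 6). On simulated data of 15 clusters and 1302 genes the largest error was 0.00844 percentage points. Sizes gave the share of detecting cells held by cluster 6, levels over the mean of all cells, and bounds for genes not listed. The bounds use the shares alone and leave out the fold limit for listing, so they may be higher than an unlisted gene could reach. The levels, and the folds without cluster 2, take the deposited folds as ratios of means with no added constant. Rounding of shares, 0.05 percentage points, was the error carried. The members and the 27 gene lists were chosen with earlier results of these data known. Every listed gene is a member and is counted, but 1 of the higher genes is not reported here by name or drawn; the markers, the largest changes and list members are given in full and the rest by range. The other lists gave these counts for cluster 6: neural crest 0 of 2; pluripotency and epiblast 1 of 9 higher, Sox2; nascent and paraxial mesoderm 1 of 9 lower, Ifitm1; mesenchyme and fibroblast 1 of 15 higher, Vim, and 1 lower, Lgals1. None of the endothelial and blood list was in the table. Of the 56 names, 55 matched a current symbol. No test was made, as the planned contrasts of genotype and stage need libraries the table does not name. Software was scipy 1.17.1, pandas 2.3.3, matplotlib 3.10.9 and numpy 2.4.6 under Python 3.11.15.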

Additional observations from a re-analysis of the deposited data

How the results depend on the processing

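Requiring at least a 2-fold change left 15 higher and 16 lower genes and 8 listed for cluster 6 alone. Taking cluster 2 out of the cells compared left 16 lower genes, of which 9 were recomputed and 7 that cluster 2 does not list were kept at their deposited values; 11 of the 26 members that both clusters list then missed the limit of 0.5 (Tubb2b, Slc2a1, Cnn2, Meg3, Hcfc1r1, Vcan, Csrp1, Rbpms, Gpx3, Gyg and Myl9), and none of the 26 changed direction. The limit on adjusted p, the 10-point difference in detection and the removal of predicted, ribosomal and mitochondrial genes each kept the counts within 1.5 times. The size of cluster 6 ran between 7.63% and 7.65% over the solvers, and the share of Wnt1-detecting cells between 73.99% and 74.05%. No paired analysis was possible because each group has 1 library and the table names none. Depth and cell numbers are unknown, so no counting interval was made.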

Other observations

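In a few members of cluster 6 the fold and the share of detecting cells did not move together. Emb, which encodes the membrane glycoprotein embigin, was 1.90-fold lower, although 52.8% of cells inside and 53.4% outside detected it, in the authors' deposited table. Its level was 0.55-fold the mean of all cells in cluster 6 and 3.56-fold in cluster 3, where 99% of cells detected it in the authors' deposited table. In the clusters that do not list Emb, 79.4% of cells did. Emb and Gyg were the 2 of 26 lower genes whose shares differed by less than 10 percentage points, and there were 0 such genes among the 30 higher ones.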
